A study of Homo sapiens with 17 samples.

Results

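Human BJ fibroblasts made quiescent by serum depletion were compared with proliferating cultures of the same sequencer run, transcript by transcript, in RNA level and in translation efficiency (TE). The comparison takes 8 of the 17 samples of the series: cultures Q1 and Q2 against cultures C1 and C2, each measured by RNA-Seq and by ribosome profiling (Ribo-Seq). BJ cells are foreskin fibroblasts, here immortalised with telomerase (hTERT) and grown in DMEM with fetal calf serum. All cultures carry hTERT, and none of these 8 samples received oncogenic RAS; the quiescent cultures differ from the proliferating ones by serum depletion, whose duration the sources used here do not give. The table holds 9699 transcripts, 1 for each gene, and 7170 of them had a mean of at least 5 FPKM (fragments per kilobase of transcript, scaled to the number of reads) over both conditions in each assay and were counted.

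Quiescence is a reversible arrest in which a cell leaves the division cycle and lowers its production of ribosomes and other building machinery. Serum supplies growth factors, which signal through the mTOR kinase, and lipoproteins, which supply cholesterol. When sterols run low, SREBP transcription factors raise the RNA of enzymes that make and import lipids. mTOR acts mostly at translation: mRNAs that begin with a 5′ terminal oligopyrimidine (TOP) tract, which encode ribosomal proteins and translation factors, lose ribosomes when mTOR activity is low while the mRNA itself persists. RNA-Seq measures the mRNA, Ribo-Seq counts the mRNA fragments that ribosomes protect, and TE is the log2 ratio of the footprint level to the RNA level. A change in TE below is therefore the log2 footprint ratio minus the log2 RNA ratio, and an error in the RNA level enters both quantities with opposite sign.

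The deposited table gives 1 column for C1 and C2 together (here C1/C2) and 1 for Q1 and Q2 together in each assay. Replicate values are not in these columns, so no spread between replicates and no test could be had, and every change is a ratio between pooled values that is called when it reaches 2-fold (a log2 ratio of 1 in size). The only measure of spread in the table is the proliferating culture C3, a single sample of the second sequencer run. Its distance from C1/C2 contains the difference between runs. The study reports that replicates of the same run agreed more closely than samples of different runs. It therefore compared each condition only within its run. It lists the RNA-Seq of C1, C2, Q1 and Q2 as paired-end and that of C3 as not. Distance from C3 is thus not a measure of replicate noise. For the Ribo-Seq sample titled C3 the condition label names senescence, and for the one titled S it names proliferation; the table's headers follow the titles, which are used here, so each footprint or TE value of C3 rests on that title. Read counts for each transcript are not part of the table, and values under 1 FPKM were set to 1. The study gives read totals for each library, and the reads behind a single value were not estimated here. Of the fibroblast markers, 8 of 8 are in the table, with a summed RNA level of 5904 FPKM in C1/C2, 7147 in C3 and 7076 in quiescence. Epithelial markers reach 198 FPKM in C1/C2, 313 in C3 and 105 in quiescence, all from the keratins KRT8, KRT18 and KRT19 (3 of 7 listed); their part in the results was not tested. No endothelial marker of 5 and 2 of 6 blood cell markers, CD14 and CD68, are in the table.

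The RNA level was at least 2-fold higher in quiescence for 240 of the 7170 transcripts (3.35%) and lower for 173 (2.41%). Footprint levels were higher for 481 (6.71%) and lower for 534 (7.45%). TE was higher for 117 (1.63%) and lower for 204 (2.85%). Subtracting the median of all transcripts in each assay, which is -0.04 for RNA and -0.12 for footprints, turns the TE split to 166 higher and 155 lower and the footprint split to 615 higher and 359 lower, so whether more transcripts lay above or below 2-fold in TE depends on that centring.

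Counts of a similar size separated the proliferating cultures of the 2 runs, somewhat smaller than in quiescence for higher RNA and lower TE and larger for lower RNA and higher TE. In C3 against C1/C2, the RNA level was higher for 218 transcripts (3.04%) and lower for 217 (3.03%), and TE was higher for 245 (3.42%) and lower for 193 (2.69%). The median size of the change was 0.27 on the log2 scale for RNA and 0.30 for TE in quiescence, against 0.32 and 0.30 in C3. A stricter call therefore asked for 2-fold against C1/C2 and also against C3, which both share the quiescence columns. It left 126 transcripts with higher RNA (1.76%), 45 with lower RNA (0.628%), 20 with higher TE (0.279%) and 99 with lower TE (1.38%). As a share of each count, higher RNA and lower TE held most often against the second control, and higher TE least often.

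Most transcripts past 2-fold in RNA or TE were so at 1 level only. Few passed either cut, so a small overlap is also what independent calls would give. Of the 413 with a 2-fold change in RNA, the footprint ratio had the same sign in 412 and the change in TE was under 0.5 in size in 309. RNA alone was higher for 224 transcripts and lower for 173, TE alone was higher for 106 and lower for 199, and 6452 were past 2-fold in neither. RNA and TE were both higher for 11 transcripts and both lower for 0, and 5 had higher RNA with lower TE. Known gene groups took different shares of these classes: of the 173 with lower RNA alone, 45 belong to the cell cycle and replication list, and of the 199 with lower TE alone, 50 are cytosolic ribosomal proteins.

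**Figure D1:**
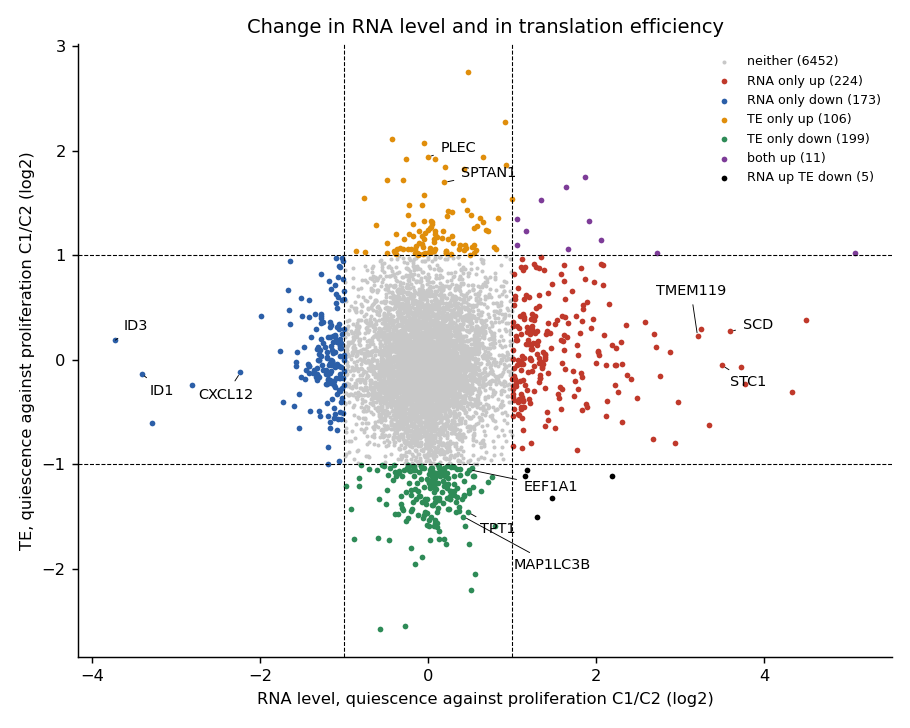
Each point is 1 of 7170 transcripts, with the log2 change in RNA level in quiescence against C1/C2 on the x axis and the log2 change in TE on the y axis; dashed lines mark 2-fold. The points form a cross, with 397 transcripts changed in RNA only and 305 in TE only, and few in the corners; where a C1/C2 value is at the floor of 1 FPKM, the ratio is set by the floor.

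The 3 groups known to respond to serum are given first, as a reference for the other genes. List counts here and below are to be read beside the shares over all transcripts. These were 3.35% for higher RNA, 2.41% for lower RNA, 1.63% for higher TE and 2.85% for lower TE. Against both controls they were 1.76%, 0.628%, 0.279% and 1.38% in the same order. The 81 cytosolic ribosomal proteins had a median RNA change of 0.06 and a median TE change of -1.10, and the TE change of every one was negative, from -1.77 for RPS3A to -0.15 for RPL26L1; 50 were past 2-fold, and 39 also against C3. Of 25 counted genes of sterol synthesis and uptake, 24 had higher RNA (23 against both controls), with a median of 2.30 for RNA and -0.04 for TE. PMVK, phosphomevalonate kinase, was the one left out, at 17.5 FPKM in C1/C2 and 17.7 in quiescence. Of 66 counted genes of the cell cycle and replication, 45 had lower RNA, with a median of -1.11 for RNA and -0.05 for TE. In C3 the same genes had a median RNA change of -0.61, and against C3 as control their median in quiescence was -0.49 and only 4 stayed past 2-fold. In cultures measured in bulk, fewer cycling cells and less of these RNAs per cell cannot be told apart.

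Higher RNA alone was seen first in genes of fatty acid synthesis and activation, which SREBP factors also serve. Of 17 counted genes on the fatty acid and lipid list, 11 had higher RNA against both controls, with a list median of 1.30 against -0.04 for all transcripts, and a C3 median of 0.04. SCD, the desaturase that makes oleate, had an RNA level of 49.4 FPKM in C1/C2, 58.0 in C3 and 595 in quiescence, and footprints of 97.8, 178 and 1424 FPKM. Its log2 change was 3.59 in RNA and 0.27 in TE, so footprints followed the RNA. FADS2, which starts the synthesis of long polyunsaturated fatty acids, had 47.3, 68.2 and 349 FPKM of RNA in the same order, a log2 change of 2.88 with 0.07 in TE. FASN, fatty acid synthase, had 69.2, 33.6 and 293 FPKM of RNA and 96.6, 59.4 and 765 of footprints, with changes of 2.08 in RNA and 0.90 in TE. In each of these 3 genes quiescence stood far above both proliferating columns, which lay within about 2-fold of each other. ACSS2, which makes acetyl-CoA from acetate, had 10.4, 9.58 and 66.8 FPKM of RNA (2.69). LPIN1, a phosphatidate phosphatase, had 11.7, 13.3 and 54.8 (2.23). The TE changes of ACSS2 and LPIN1 were 0.24 and -0.24. FABP3, a fatty acid binding protein, and TM7SF2, a sterol reductase, are listed at the floor of 1 FPKM in C1/C2 in both assays. In quiescence their RNA was 33.9 and 20.1 FPKM and their footprints 68.8 and 16.2. FABP3 was also past 2-fold in TE, at 1.02, a value set by the floor, and was at -0.79 against C3. Not every lipid gene moved. PLIN2, a coat protein of lipid droplets, had 38.3 FPKM of RNA in C1/C2 and 35.8 in quiescence, ELOVL5, an elongase, 66.7 and 87.6, and CPT1A, which carries fatty acids to mitochondrial oxidation, 9.64 and 5.27 (-0.87).

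Outside lipid metabolism the largest rise in RNA alone, at a mean of at least 20 FPKM, was that of STC1, stanniocalcin-1, a secreted glycoprotein. Its RNA level was 39.4 FPKM in C1/C2, 41.1 in C3 and 445 in quiescence, its footprints were 129, 209.9 and 1406 FPKM, and the changes were 3.50 in RNA and -0.05 in TE. The proliferating columns were alike in RNA, and quiescence lay more than 10-fold above them. TMEM119, a membrane protein, had 6.86, 19.2 and 63.3 FPKM of RNA (3.21 against C1/C2 and 1.72 against C3), so part of its distance from C1/C2 also separated the proliferating columns. KCTD12 had 9.40, 3.81 and 44.8 (2.25 and 3.56). MFAP4, a protein of elastic microfibrils, had 12.7, 30.1 and 57.9 (2.19 and 0.94), and missed 2-fold against C3. BHLHE40, a repressor linked to the circadian clock, rose from 5.35 FPKM in C1/C2 to 31.9 in quiescence, with 6.24 in C3, and it was the only one of 7 counted clock genes with higher RNA.

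Secreted and defence genes were divided. On the list of secreted, complement and interferon genes, 7 of 26 had higher RNA (3 against both controls) and 3 had lower RNA (2 against both). Over all transcripts the shares were 3.35% for higher RNA (1.76% against both) and 2.41% for lower RNA (0.628% against both). The interferon-induced IFI6 had 48.5 FPKM of RNA in C1/C2, 37.4 in C3 and 159 in quiescence, with footprints of 141, 64.2 and 730.3 (1.71 in RNA and 0.66 in TE). OAS1, which senses double-stranded RNA, went from 2.79 to 11.6 FPKM, and is at the floor in C3. It was past 2-fold at both levels, with changes of 2.05 in RNA and 1.14 in TE. PTGS2, the inducible cyclooxygenase, had 19.6, 36.2 and 69.1 FPKM (1.82, and 0.93 against C3). In the other direction, the chemokine CXCL12 had 55.1, 34.4 and 11.7 FPKM (-2.23 in RNA and -0.12 in TE), and CCL2, which attracts monocytes, had 55.5, 81.0 and 27.0 (-1.04). Both chemokines were lower in quiescence than in either proliferating column. IL11 had 26.7, 9.62 and 12.4 FPKM (-1.11), so quiescence lay between the proliferating columns.

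Among 13 counted matrix proteases and inhibitors, 3 had higher RNA and 1 lower. MMP14, a membrane-bound protease that activates other matrix proteases, had 122, 148 and 348 FPKM in C1/C2, C3 and quiescence (1.50), with footprints of 189, 336 and 677. MMP1, interstitial collagenase, had 1289, 796 and 2808 FPKM of RNA (1.12, and 1.82 against C3). PLAT, tissue plasminogen activator, had 97.4, 210.0 and 257 (1.40, and 0.29 against C3). MMP14 and MMP1 were higher than in both proliferating columns, whereas for PLAT the C3 level was close to that of quiescence. MMP3, stromelysin, had 399, 43.4 and 120.0 FPKM of RNA and 1108, 178 and 252 of footprints. It was lower than C1/C2 (-1.73) and higher than C3 (1.47), so its direction was set by the control chosen.

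Growth factor and stress genes also had calls of higher RNA, and only part of these held against C3. On the list of growth factors, their receptors and IGF binding proteins, 6 of 21 had higher RNA (3 against both controls), among them HGF, hepatocyte growth factor, at 2.91, 3.16 and 10.3 FPKM in C1/C2, C3 and quiescence. Its receptor MET was lower, at 34.0, 36.7 and 16.2 FPKM (-1.07, and -1.18 against C3). Of 32 counted genes of the ATF4 and amino acid response, 5 had higher RNA and 3 of these also against C3: CHAC1, which degrades glutathione, at 37.2, 24.8 and 95.9 FPKM, DDIT4 (REDD1), an inhibitor of mTOR, at 29.6, 8.99 and 69.1, and NUPR1, a stress-induced nuclear protein, at 28.0, 29.6 and 73.2. All 3 were higher in quiescence than in either proliferating column, by 1.37, 1.22 and 1.39 against C1/C2. The list median was 0.42 in quiescence and -0.67 in C3 against the same C1/C2. SESN2, Sestrin2, another inhibitor upstream of mTOR, had 14.6, 8.24 and 27.4 FPKM (0.91) and did not reach 2-fold in RNA against C1/C2. Its RNA change against C3 was 1.735, and its footprint change against C1/C2 was 1.34. Of 27 counted FOXO and serum withdrawal genes, 6 had higher RNA and 0 also against C3. Among the 6, YPEL5 had 12.2 FPKM in C1/C2, 36.9 in C3 and 36.8 in quiescence. PDGFRL and TSC22D3, at 3.20 and 2.50 FPKM in C1/C2, changed by 2.36 and 1.82. They narrowly missed 2-fold against C3, at 0.97 and 0.998. TXNIP, an inhibitor of thioredoxin and glucose uptake, was not called, at 36.6, 42.9 and 67.5 (0.88).

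Lysosomal and glycolytic lists held single strong members. WIPI1, which acts in autophagosome formation, had 12.6, 20.8 and 45.1 FPKM of RNA in C1/C2, C3 and quiescence (1.84), and NEU1, lysosomal sialidase, had 19.3, 21.5 and 45.0 (1.22). They were 2 of the 5 lysosome and autophagy genes of 46 with higher RNA, and the 2 that held against C3. LIPA, lysosomal acid lipase, had 12.8, 56.2 and 38.3, with quiescence between the proliferating columns. Among 21 glycolysis genes, ALDOC, an aldolase, had 10.1, 20.1 and 44.2 FPKM (2.13) and PFKFB4, a regulator of glycolytic flux, 5.97, 4.19 and 15.2 (1.35). The others stayed under 2-fold in RNA, LDHA at 743 and 775 FPKM in C1/C2 and quiescence and GAPDH at 3424 and 3774.

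Lower RNA alone was led by a pair of ID genes, which encode helix-loop-helix inhibitors induced by BMP signalling. ID3 had an RNA level of 145 FPKM in C1/C2, 116 in C3 and 11.0 in quiescence, and footprints of 372, 333 and 32.1 (-3.72 in RNA and 0.19 in TE). ID1 had 164, 159.5 and 15.5 FPKM of RNA and 381, 281 and 32.7 of footprints (-3.41 and -0.13). For both genes the proliferating columns were alike and quiescence was more than 10-fold lower in RNA. ID2 had 26.1, 19.5 and 13.4 FPKM (-0.97), short of 2-fold, and the other counted genes of the TGF-beta and BMP list, 13 in all, stayed under 2-fold, GREM1, a BMP antagonist, at 167 FPKM in C1/C2 and 154 in quiescence.

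Among the largest falls in RNA alone outside the cell cycle list were 4 more genes, described here singly. CTPS, CTP synthase, had 63.8, 48.3 and 22.0 FPKM of RNA in C1/C2, C3 and quiescence, with footprints of 98.6, 77.2 and 27.1 (-1.54 in RNA and -0.33 in TE). CDCA8, borealin of the chromosomal passenger complex, had 54.7, 37.8 and 18.5 (-1.57), and FAM83D, a spindle protein, 31.1, 24.3 and 11.5 (-1.43). PKMYT1, a kinase that inhibits CDK1, had 34.6, 20.5 and 10.9 (-1.67, and -0.91 against C3). In all 4 genes the order of RNA levels was C1/C2, then C3, then quiescence. MKI67, the proliferation marker Ki-67, had the same order, at 73.9, 44.0 and 32.8 FPKM, but lay only -0.42 from C3.

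Genes of the actin cytoskeleton also had lower RNA. On the list of contractile genes and targets of YAP and SRF, 8 of 26 were lower (5 against both controls) and 0 higher. Among all transcripts 2.41% were lower, and 0.628% against both controls. The list median was -0.64 in quiescence against 0.21 in C3, and 23 of 26 changes were negative. TPM1, a tropomyosin, had 279, 553 and 104 FPKM of RNA in C1/C2, C3 and quiescence and 1059, 1322 and 378 of footprints (-1.42 in RNA). TAGLN, transgelin, had 300.3, 409 and 149 (-1.01), and F3, tissue factor, 91.8, 99.8 and 37.2 (-1.30). Each of the 3 was lower than in both proliferating columns. ACTB, beta-actin, had 4719.8, 4432 and 2230.4 FPKM of RNA and 5955, 5767 and 3968 of footprints, with changes of -1.08 in RNA and 0.50 in TE. FLNC, filamin C, showed the 2 levels apart more widely: its RNA went from 204 to 101 FPKM while its footprints were 234 and 223, a TE change of 0.95. ACTA2, smooth muscle actin, was not lower than C1/C2, at 23.8, 52.0 and 31.0 FPKM.

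**Figure D2:**
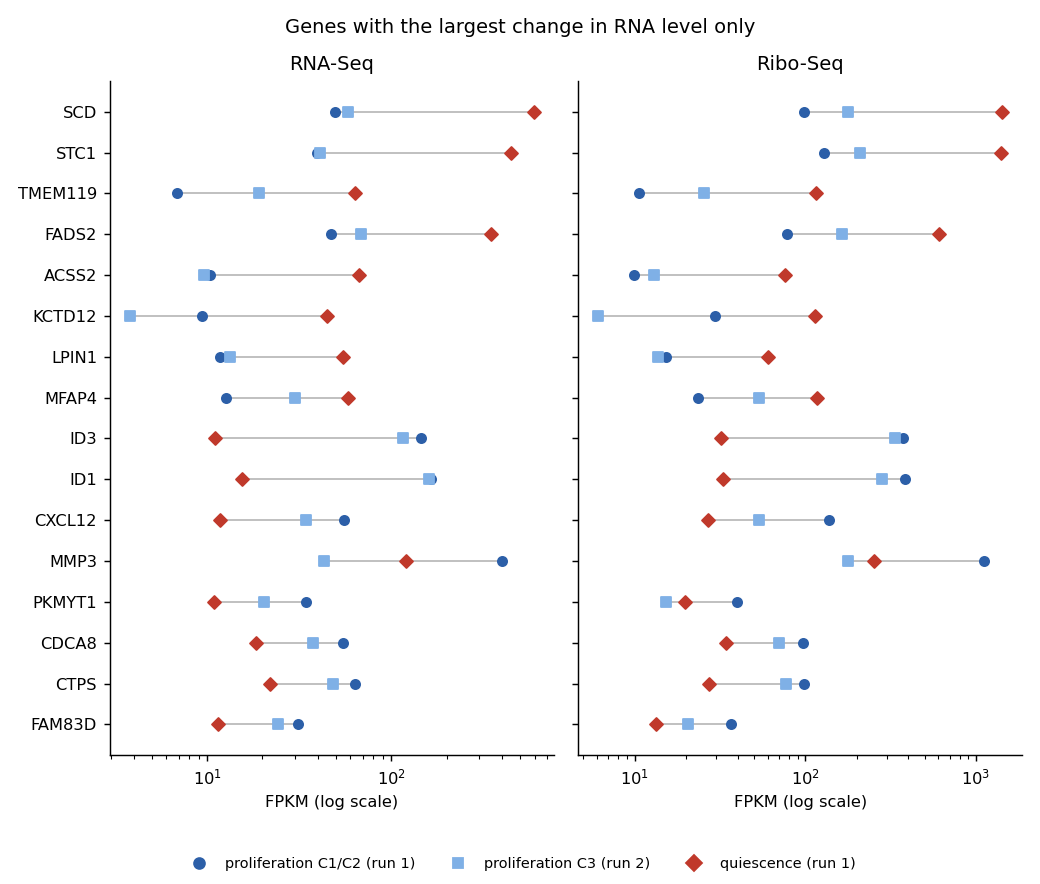
Points give the FPKM (log scale, x axis) of the 16 genes with the largest change in RNA alone, in RNA-Seq (left) and Ribo-Seq (right), for C1/C2, C3 and quiescence. The quiescence point lies outside both proliferating points, except in MMP3 in both assays and in PKMYT1 in Ribo-Seq, where it lies between them.

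Serum response genes were mostly not lower in quiescence. Of 36 counted, 3 had lower RNA, namely DUSP1, CYR61 and KLF10, all against both controls. The shares over all transcripts were 2.41% for lower RNA and 0.628% against both controls. DUSP1, a phosphatase that switches off MAP kinases, had 63.7, 113 and 26.4 FPKM in C1/C2, C3 and quiescence. CYR61, a matricellular protein, had 387, 349 and 163, and KLF10 had 13.8, 17.1 and 6.23. JUND, an AP-1 member linked to growth arrest, was higher, at 31.2, 32.2 and 70.9 (1.18). MYC had 41.0, 31.7 and 39.4 FPKM (-0.06), and CCND1, cyclin D1, had 378, 476 and 686 (0.86), so neither was lower in the pooled quiescence column. Of the CDK inhibitors, CDKN1A (p21) had 80.8, 172 and 129 FPKM, highest in C3, and CDKN1B (p27) 12.8, 17.4 and 10.6.

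Ribosome biogenesis genes, whose products process ribosomal RNA and assemble subunits, had a median RNA change of -0.58, with 71 of 74 changes negative and 3 past 2-fold. EBNA1BP2 had 156, 64.4 and 63.8 FPKM of RNA in C1/C2, C3 and quiescence, PA2G4 had 182, 99.5 and 88.7, and BOP1 had 14.8, 5.89 and 6.94. In each, C3 was as low as quiescence or nearly so: the median of the list in C3 was -0.59, and 0 of 74 were past 2-fold against both controls. Splicing factors and hnRNPs showed the same, with medians of -0.45 in quiescence and -0.41 in C3. For both lists C3 thus lay about as far below C1/C2 as quiescence did.

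Lower TE without a fall in RNA was shared by translation factors, a few genes outside the translation apparatus and the ribosomal proteins described above. The first bases of some of these transcripts are shown because a TOP tract lies there, and those of SPTAN1, the last line, stand beside them as a transcript with higher TE. Each line gives 8 bases before the RefSeq start and 15 from it, with the run of pyrimidines from the start in capitals, from assembly GRCh38.p14; the first 6 meet the rule of a C followed by at least 4 pyrimidines, and the last 4 do not.
RPS3A, chr4:151099620-151099642 (+): cacttccgCCCTTTTggctctct
TPT1, chr13:45341169-45341191 (-): gagtcggcCTTTTCCgcccgctc
EEF1A1, chr6:73521018-73521040 (-): tgaacgttCTTTTTCgcaacggg
EEF2, chr19:3985449-3985471 (-): tcagcgttCTCTTCCgccgtcgt
EIF4B, chr12:53006448-53006470 (+): atccgggtCTTTTgcgttctctt
COX7C, chr5:86617933-86617955 (+): ccatctttCTTTTCagtccttgc
MAP1LC3B, chr16:87392328-87392350 (+): ctatcgccagagtcggattcgcc
ZNHIT3, chr17:36486673-36486695 (+): cagtgaacagtctccttccacaa
PFDN4, chr20:54208079-54208101 (+): cctgcggtagtccagtcccaaga
SPTAN1, chr9:128552579-128552601 (+): gcgtcgccgccactacccgctgc

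A start of this kind was found in 513 of the 6018 counted transcripts with a RefSeq start (8.52%), and in 47 of 67 ribosomal proteins with one (70.1%). RPL3, a ribosomal protein at -1.29 in TE and not shown above, lacks it, with a run of 4 pyrimidines from the start. Among transcripts with TE lower by 2-fold, 48 of 168 had it (28.6%), and without the ribosomal proteins 19 of 128 (14.8%), against 466 of 5951 counted transcripts that are not ribosomal proteins (7.83%). So most transcripts with lower TE outside the ribosome did not begin with these letters. Conversely, non-ribosomal transcripts with such a start had a median TE change of -0.11, against -0.07 for the others, and a match of letters at an annotated start does not show where transcription began in these cells. No count is read for 3 sets in which under 80% of transcripts have a RefSeq start: those with TE higher by 2-fold (77.8%), the translation factor list (78.7%), and non-ribosomal transcripts with lower TE against both controls (76.7%).

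On the list of translation factors and other TOP mRNAs, 7 of 47 had TE lower by 2-fold (3 against both controls), 42 of 47 changes in TE were negative, and the median was -0.48 against -0.07 for all transcripts and -0.02 in C3. TPT1, the translationally controlled tumour protein and a classical TOP mRNA, had 779 FPKM of RNA in C1/C2, 1168 in C3 and 1079.9 in quiescence, and footprints of 914, 1011 and 462 (-1.46 in TE). Its RNA was higher than in C1/C2 while its footprints were the lowest of the 3 columns. EEF1A1, the elongation factor that delivers aminoacyl-tRNA, had 3018, 2848 and 4227 FPKM of RNA and 7688, 7415 and 5202 of footprints, an RNA change of 0.49 and a TE change of -1.05. EIF4B, a helicase cofactor, had 187, 174 and 237 of RNA and 292, 182 and 157 of footprints (-1.23 in TE, and -0.65 against C3). EIF3E, a subunit of initiation factor 3, was at -1.10 in TE and -1.04 against C3. Against C1/C2 the group was not uniform. EEF2, the translocation factor, whose start also meets the rule, was at -0.64. EIF4G1, the scaffold of the cap complex, was at 0.60, EIF4EBP1, the repressor of eIF4E, at 0.55, and PABPC1, the poly(A) binding protein, at -0.10. Against C3 these last genes were at 0.67, -0.60 and -1.06 in the same order. For EIF4EBP1 the sign, and for PABPC1 the call, thus depended on the control.

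Outside the ribosomal protein, sterol and cell cycle lists, 28 transcripts with a mean of at least 20 FPKM in both assays had lower TE alone, TPT1, EEF1A1, EIF4B and EIF3E among them. ATXN7L3B had 20.7 FPKM of RNA in C1/C2, 21.8 in C3 and 22.3 in quiescence, and footprints of 77.1, 48.5 and 28.1 (-1.56 in TE, and -0.82 against C3). MAP1LC3B (LC3B), which coats autophagosomes, had 27.4, 36.2 and 36.7 FPKM of RNA and 39.7, 39.7 and 18.8 of footprints (-1.50, and -1.10 against C3). Its footprints were nearly equal in the proliferating columns and lower in quiescence, with RNA at or above theirs. PFDN4, a subunit of the chaperone prefoldin, had 40.0, 24.9 and 36.1 of RNA and 71.5, 50.6 and 25.7 of footprints (-1.33 and -1.51). ZNHIT3 had 66.1, 35.8 and 23.9 FPKM of footprints at an RNA level of 27.6, 22.3 and 27.4 (-1.46 and -0.88), and NAT9 was at -1.31 against C1/C2 and -0.56 against C3, whose footprints were like those of quiescence. PFDN4 and MAP1LC3B thus passed 2-fold against both controls, and ATXN7L3B, ZNHIT3 and NAT9 did so only against C1/C2. The transcript annotated RP5-977B1.10 was at -1.47 and -1.12, past 2-fold against both. HNRNPA1L2 (-1.38) and HNRNPA1 (-1.05) were both lower, but they are near-identical copies between which uniquely mapped reads can be split, so their values are uncertain.

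The mitochondrial translation and respiratory lists shifted by less than 2-fold. The list of mitochondrial ribosomal proteins, drawn up by symbol, had a median TE change of -0.36, with 60 of 71 negative and 1 past 2-fold, MRPS36. The RNA of MRPS36 was 10.2 and 11.7 FPKM in C1/C2 and quiescence, and its footprints were 81.7 and 28.3 (-1.72 against either control). MRPS36 is on the list by its symbol, and whether its product is part of the mitochondrial ribosome was not checked. Respiratory chain and ATP synthase genes had a median of -0.30, with 62 of 73 negative and 2 past 2-fold. ATP5SL, also listed by its symbol and not checked as a subunit, had 15.8 and 15.5 FPKM of RNA and 44.9 and 16.9 of footprints (-1.38, and -0.44 against C3). COX7C, a small subunit of cytochrome oxidase with a TOP-like start, had 42.8 and 49.3 FPKM of RNA and 567 and 302 of footprints (-1.11, and -0.98 against C3). Proteasome subunits had a median of -0.27, with 35 of 37 negative and 0 past 2-fold. In C3 these 3 medians were -0.01, 0.18 and 0.01. Of ribosome biogenesis genes, 2 had lower TE, both against both controls: PNO1, at 43.6, 47.8 and 11.3 FPKM of footprints in C1/C2, C3 and quiescence (-1.13), and POLR1D, a subunit of RNA polymerases I and III, at 39.9, 36.6 and 18.0 (-1.20). Aminoacyl-tRNA synthetases had a median of -0.19 and no member past 2-fold in RNA or TE.

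Higher TE alone was rarer at higher levels: of 106 such transcripts, 17 had a mean of at least 20 FPKM in both assays. PLEC, plectin, which links intermediate filaments to other structures, had 196 FPKM of RNA in C1/C2, 150.0 in C3 and 195 in quiescence, and footprints of 159, 86.7 and 607 (1.94 in TE). SPTAN1, the alpha chain of non-erythroid spectrin, had 82.0, 88.8 and 93.5 of RNA and 47.8, 63.1 and 177 of footprints (1.70), and its partner SPTBN1 had 185, 115 and 189 of RNA and 111, 42.4 and 274 of footprints (1.27). In these 3 cytoskeletal genes the footprints of quiescence were above both proliferating columns, and TE was also past 2-fold against C3, at 2.43, 1.41 and 1.96.

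A further 4 of the 8 largest did not hold against C3. LRP1, a large endocytic receptor, had footprints of 62.3, 164 and 237 FPKM in C1/C2, C3 and quiescence (1.25, and 0.46 against C3). HSPG2, perlecan, had 26.4, 53.1 and 42.1 (1.29 and 0.31), and B3GAT3, which builds the linker of proteoglycan chains, 14.6, 34.1 and 53.9 (1.38 and 0.36). For these genes the C3 column moved from C1/C2 in the same direction, with TE changes of 0.78, 0.98 and 1.02. COL1A1, the main fibrillar collagen chain, had 371, 1328 and 345 FPKM of RNA and 588, 4134 and 1283 of footprints (1.23 and 0.26), and COL1A2, its partner chain, was at 0.81 and 0.30. On the list of collagens and matrix genes the median TE change was 0.49 and only 5 of 44 changes were negative, but 2 were past 2-fold, COL1A1 and COL5A1, and 0 against both controls.

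**Figure D3:**
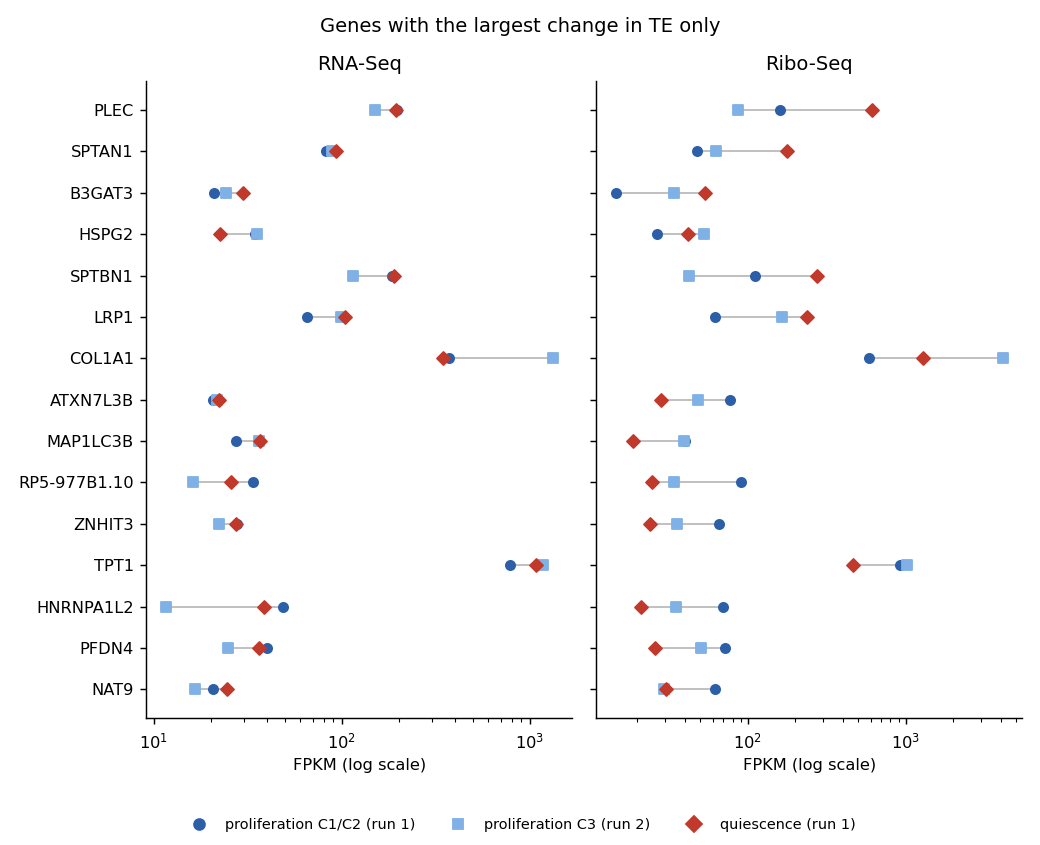
Points give the FPKM (log scale, x axis) of 15 of the genes with the largest change in TE alone, in RNA-Seq (left) and Ribo-Seq (right), for C1/C2, C3 and quiescence. In all but HSPG2, COL1A1 and NAT9 the footprint point of quiescence lies outside both proliferating points.

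In RNA level, C3 lay further above C1/C2 than quiescence did for the matrix genes. The list median was 0.15 in quiescence and 0.92 in C3. COL4A1, a basement membrane collagen chain, had 33.3, 92.5 and 16.3 FPKM of RNA in C1/C2, C3 and quiescence (-1.03), and its partner COL4A2 had 67.3, 152 and 33.3 (-1.02); both were lower than in either proliferating column. LUM, lumican, and LOXL4, a lysyl oxidase relative, were higher than in C1/C2, at 101 against 33.5 FPKM and 30.6 against 7.78, but C3 was higher still, at 155 and 41.9.

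Transcripts that moved at both levels were few and low. All 11 with higher RNA and higher TE had a mean under 20 FPKM in at least 1 assay, and so did the 5 with higher RNA and lower TE, so the rule for naming genes by size took none of them; INSIG2 and INHBE are named after their values were seen. HSD17B7, a sterol synthesis enzyme, had 3.33 and 21.9 FPKM of RNA in C1/C2 and quiescence and 1.97 and 26.3 of footprints (2.72 in RNA and 1.02 in TE). Against C3 its changes were 1.84 in RNA and 0.17 in TE, so the call in TE did not hold. INSIG2, which retains SREBP in the endoplasmic reticulum, had 4.87 and 10.1 of RNA and 2.40 and 10.6 of footprints (1.05 and 1.09). INHBE, an inhibin beta chain, had 3.38 and 12.7 of RNA and 3.23 and 30.4 of footprints, and is at the floor in C3. In the opposite pattern, STARD4, a carrier of cholesterol, had 4.65 and 21.2 FPKM of RNA but 21.2 and 44.9 of footprints (2.19 in RNA and -1.11 in TE). For STARD4 too only the call in RNA held against C3, at 1.47 in RNA and -0.62 in TE. At these levels a TE change rests on values of a few FPKM in C1/C2.

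ATF4, the stress transcription factor whose own mRNA is under translational control through upstream reading frames, had 211 FPKM of RNA in C1/C2, 131 in C3 and 306 in quiescence, with footprints of 65.7, 13.1 and 44.0. Its TE was -1.12 against C1/C2 but 0.52 against C3, so no direction holds across the controls. ZFP36, which destabilises AU-rich mRNAs, and NINJ1, a membrane protein, had TE changes of 2.11 and 1.92, and C3 was as far from C1/C2, at 2.36 and 2.20. Of the serum response list, 4 of 36 had higher TE and 1 of these, SPRED2, an inhibitor of RAS signalling, also against C3 (1.05 and 1.37). Higher TE was called for 1.63% of all transcripts, and for 0.279% against both controls. Replication-dependent histone mRNAs mostly lack a poly(A) tail and the RNA-Seq libraries were made from poly(A) RNA, so their TE compares unlike fractions; HIST1H2AC, for example, had 9.50 FPKM of RNA and 957 of footprints in C1/C2, and 5 of 13 histone genes were counted.

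The medians of the last lists are given beside those of all transcripts, which were -0.04 in RNA and -0.07 in TE. Chaperones and other genes of the endoplasmic reticulum had medians of 0.13 in RNA and -0.12 in TE, with 0 of 29 past 2-fold in either. p53 target genes had medians of 0.24 and -0.08, and 2 of 15 had higher RNA, against 3.35% of all transcripts. These were XPC, a DNA damage sensor, at 18.5, 23.5 and 42.8 FPKM in C1/C2, C3 and quiescence, and FUCA1, at 3.15, 11.8 and 7.71. Neither was past 2-fold in RNA against C3. FUCA1 also had lower TE, at -1.50 against C1/C2 and -0.46 against C3. NINJ1, also on this list, had higher TE, at 1.92 against C1/C2 and -0.28 against C3. VIM, vimentin, the highest RNA of quiescence at 4881 FPKM, was at 4334 in C1/C2 (0.17 in RNA and -0.03 in TE).

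**Figure D4:**
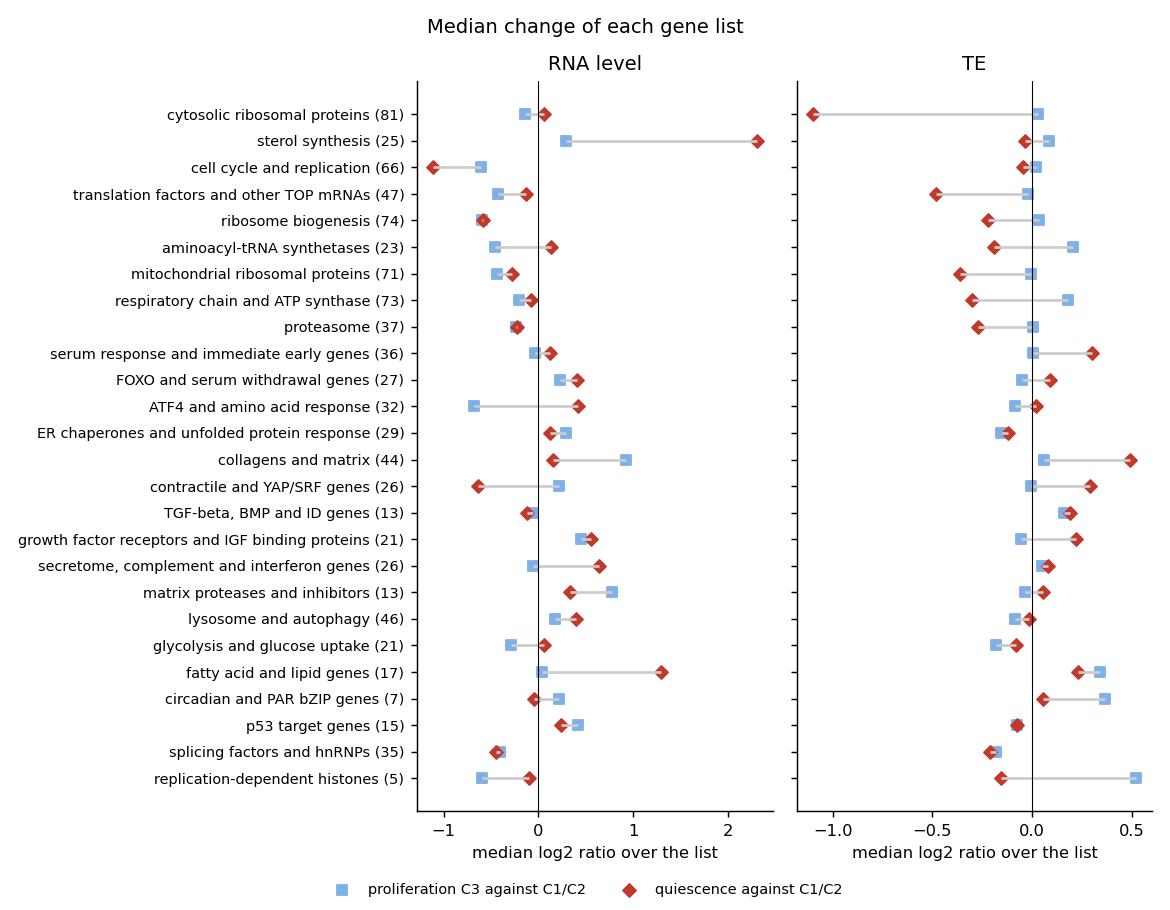
Median log2 change of each gene list (number of counted genes in brackets) in RNA level (left) and TE (right), for quiescence and for the proliferating culture C3, both against C1/C2. In TE the ribosomal proteins (-1.10) and translation factors (-0.48) lie lowest in quiescence with C3 near 0, whereas in RNA the ribosome biogenesis list has nearly the same median in both (-0.58 and -0.59).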

How the data were processed

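Proliferating and serum-depleted BJ fibroblasts were measured by poly(A) RNA-Seq and by Ribo-Seq after cycloheximide treatment and RNase I digestion. The authors aligned reads with Bowtie (version not given in the sources used here) to 1 Ensembl coding transcript for each gene, the isoform with the longest coding sequence, and kept uniquely mapped reads; the labels name hg19 as build. They deposited FPKM values, over the whole transcript for RNA-Seq and over the coding sequence for Ribo-Seq, with values under 1 set to 1 and with replicates C1 and C2, and Q1 and Q2, in 1 column each; how these were combined is not given in the sources used here.

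From the deposited FPKM values, log2 ratios of quiescence to C1/C2 were computed in Python 3.11.15 with numpy 2.4.6 and pandas 2.3.3, and the TE change was taken as the footprint ratio minus the RNA ratio. Transcripts with a mean over C1/C2 and quiescence of at least 5 FPKM in both assays were counted, and a change was called at 2-fold. With replicates pooled there is no n within a condition, no error and no test, so no p-value is given, and precision could not be computed without read counts. The study's own cut-off varied with the level of the transcript; a fixed fold is used here.

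Named genes were, from each class of change outside the reference lists, the 8 with the largest change at a mean of at least 20 FPKM, the 3 largest rises and falls of each gene list in RNA and TE, 1 of each for the reference lists, and a short set of well-known genes. The text describes part of the 271 genes so chosen, and 2 more were left out of the results. The members, the gene lists and the rules were chosen with earlier results of these data known. The lists used older symbols where the table does. Start sequences and their coordinates are from RefSeq (GRCh38.p14), matched by symbol or a unique synonym for 6018 of 7170 transcripts. The class assignment was tested on simulated data, with planted changes larger than 2-fold and noise smaller than the spread between C3 and C1/C2. That test checks the code and does not give the share of transcripts misclassified at the real spread. Alternatives were the filter, the floor, the pseudocount, centring and the control. The other conditions of the table were not analysed here.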

Additional observations from a re-analysis of the deposited data

How the results depend on the processing

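No paired analysis was possible because the columns carry no replicate numbers, and for the same reason no replicate could be left out. Counts past 2-fold moved with the filter: with no filter, 389 transcripts had higher RNA, 884 higher footprints, 361 higher TE and 404 lower TE, 711 changed in TE only, 31 in both in the same direction and 23 in opposite directions. At a mean of at least 20 FPKM the counts were 109 and 87 for higher and lower RNA, 177 and 233 for footprints, 17 and 78 for TE, 196 for RNA only, 95 for TE only, and 0 for both classes that changed at both levels. With log2(FPKM + 1) in place of the floor, 73 had higher TE, 6 changed in both in the same direction and 2 in opposite directions; with a floor of 5 these were 74, 5 and 3. Centring each assay on its median gave 17 changed in both in the same direction. With C3 as control, 265 had lower RNA, 453 lower TE, 573 changed in TE only, 37 changed in both in opposite directions, and the cell cycle median in RNA was -0.49. Requiring 2-fold against both controls, an alternative chosen after seeing the data, left 126 with higher and 45 with lower RNA, 212 with higher and 207 with lower footprints, and 20 with higher and 99 with lower TE. With C3 as control, 151 of 542 values of genes chosen by rule had the other sign, 14 of them past 2-fold against C1/C2: in RNA, ANGPTL2 (-0.10), BOP1 (0.24), FUCA1 (-0.61), IL11 (0.36), LIPA (-0.55), LOXL4 (-0.45), LUM (-0.61), MMP3 (1.47) and YPEL5 (-0.0047), and in TE, ATF4 (0.52), FABP3 (-0.79), GABARAPL1 (0.11), NINJ1 (-0.28) and ZFP36 (-0.25). Of 46 medians of the other lists, 16 moved by more than the typical distance between C3 and C1/C2 when C3 was the control, and 1 with no filter. The cause of these differences was not tested. The medians of the ribosomal protein and sterol lists moved by less than that distance under each of these settings. Pooled columns, a single proliferating culture from another run and its contradictory Ribo-Seq label limit every value given.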

Other observations

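GPX4, the selenoprotein that reduces lipid hydroperoxides, was outside the rule for named genes and was chosen after its values were seen. Its RNA level was 119.9 FPKM in C1/C2, 148 in C3 and 140.5 in quiescence, and its footprints were 80.3, 99.2 and 40.3 FPKM. The TE change was -1.22 against C1/C2 and -1.22 against C3, while C3 against C1/C2 was at 0.0009. No annotated RefSeq start of GPX4 begins with a C followed by at least 4 pyrimidines. COX7A1, a muscle-type subunit of cytochrome oxidase, also chosen after its values were seen, had 5.16 FPKM of RNA in C1/C2, 11.4 in C3 and 11.7 in quiescence with footprints of 24.4, 68.5 and 26.6, a TE change of -1.05 against C1/C2 and -1.40 against C3.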
